A study of Rattus norvegicus with 6 samples.

Results

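The family of miR-148a, miR-148b and miR-152 was followed in exosomes, membrane vesicles shed by cells into the circulation, from rat serum. Its 6 members, rno-miR-148a-3p, rno-miR-148a-5p, rno-miR-148b-3p, rno-miR-148b-5p, rno-miR-152-3p and rno-miR-152-5p, were taken by name from the 763 mature miRNAs of the deposited table, and all 6 had counts. The family was chosen by the level of miR-148a-3p, the highest mean of the table, so that level is a description and carries no test. The label of most abundant family holds for miR-148a-3p alone, since miR-148b-3p and miR-152-3p came 61st and 65th by mean value.

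The rats were male Sprague-Dawley adults of 9 to 10 weeks and 250 to 280 g, under pentobarbital, and small RNA was sequenced. Blood of the 3 IPC-exo samples was drawn from the left ventricle after ischemic preconditioning (IPC): 3 cycles of tying off the left anterior descending artery of the heart for 5 min and reopening it for 5 min. Blood of the 3 Con-exo samples, called controls here, was drawn in the same way without that step, and no sham operation is described. Whether each sample is its own rat is not stated, so p-values reflect only sample-to-sample spread, part or all of which may be technical.

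A miRNA gene gives a hairpin transcript that is cut into a short duplex with a 5p and a 3p arm, and usually 1 arm is kept in an Argonaute protein while the other is degraded. The kept arm finds mRNAs mainly through its seed, bases 2 to 8 from its 5′ end, so miRNAs with the same seed can repress overlapping sets of mRNAs. In the miR-148 and miR-152 family the 3p arm is the guide strand. In human and mouse cells its members repress the DNA methyltransferase DNMT1, and miR-148a also represses the LDL receptor and the cholesterol exporter ABCA1 in liver, where it is abundant. miR-148a-3p is also known as a major miRNA of milk vesicles.

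The mature sequences are shown because the levels below differ greatly between arms that have the same seed. They were read from RefSeq (rat GRCr8, where 5 of the 6 members have one), 5′ to 3′, with the seed in capitals:
miR-148a-3p: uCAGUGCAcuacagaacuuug
miR-148b-3p: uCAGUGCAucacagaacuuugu
miR-152-3p: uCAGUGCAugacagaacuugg
miR-148a-5p: aAAGUUCUgagacacucugacuc
miR-152-5p: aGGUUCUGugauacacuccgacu

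The 3p arms all have the seed CAGUGCA, and no other of the 693 mature miRNAs in the RefSeq table has it. Counted from the 5′ end and with miR-148a-3p as the reference, miR-148b-3p carries C9U and U10C, and 19 of the 21 bases compared are identical. miR-152-3p carries C9U, U10G and U20G, with 18 of 21 identical bases. The differences thus lie outside the seed, and how reads with mismatches were divided between these near-identical arms is not given in the sources used here. The 5p arms printed do not have a common seed.

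The hairpin of miR-148a is shown because its arms differ most in level. It lies at chr4:81664431-81664527 on the minus strand in GRCr8, a build other than the rn6 named by the submitters, within no other annotated gene, and the capitals mark the 5p arm and then the 3p arm:
Mir148a: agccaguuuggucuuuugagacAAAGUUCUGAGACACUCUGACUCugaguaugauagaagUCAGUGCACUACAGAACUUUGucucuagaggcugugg
In the same assembly Mir148b lies within Copz1 and Mir152 within Copz2. These paralogous genes encode zeta subunits of the COPI coat, which carries vesicles between the Golgi and the endoplasmic reticulum.

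Library depth, as recovered counts, was between 111048 and 152343 for controls and between 319285 and 762927 for IPC. The depth ranges of the groups do not overlap, the mean being 4.44 times as high for IPC, so depth and group cannot be told apart. The number of miRNAs past an adjusted p of 0.05 (limma) was 0 of 226 with all libraries. It went to 38 when control replicate 2 was left out and stayed at 0 when any other single library was. Results that rest on control replicate 2 are given below with and without it. Levels are deposited normalised values, and shares are percentages of the sum of a library's column.

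miR-148a-3p had by far the most signal in the family. Its normalised values were 82473, 23928 and 23044 in control replicates 1, 2 and 3, and 53053, 50193 and 43163 in IPC replicates 1, 2 and 3. All IPC values lay between the highest control and the other controls, so the groups overlapped. These values made up 24.3%, 12.7% and 7.78% of the column sums in control replicates 1, 2 and 3. The shares in IPC replicates 1, 2 and 3 were 18.7%, 18.1% and 18.2%. The IPC shares were nearly equal while the highest control share was about 3 times the lowest. Depth does not limit these shares, since the exact 95% binomial interval was 7.63% to 7.93% in control replicate 3, where the share was lowest, and 24.0% to 24.6% in control replicate 1 (counting error only).

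**Figure D1:**
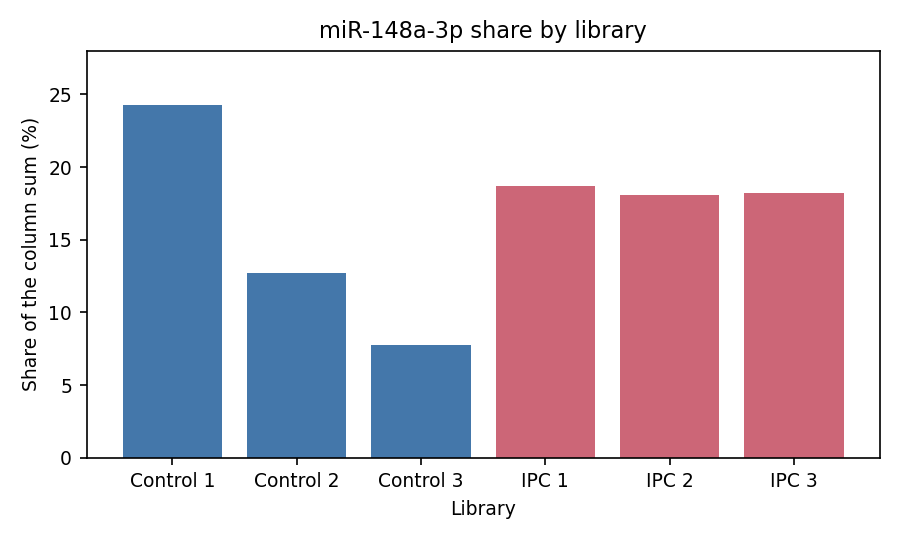
Share of each library's column sum (vertical axis, %) taken by miR-148a-3p in the 3 control (blue) and 3 IPC (red) libraries. The IPC bars stand between 18.1% and 18.7%, and the control bars between 7.78% and 24.3%.

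On the log2(value + 1) scale the standard deviation of miR-148a-3p was 0.15 among IPC libraries and 1.05 among controls. Of the 226 miRNAs tested, 5 had a smaller standard deviation among IPC libraries, where the median was 0.64, and 116 had a smaller one among controls, where the median was 1.04. Among the 50 most abundant miRNAs, 1 varied less among IPC libraries, where their median was 0.73, and 29 varied less among controls, where it was 0.85. These spreads rest on 3 libraries each and are a description without a test.

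By level miR-148a-3p came first in 5 of the 6 libraries. In control replicate 3 it came 4th, behind miR-320-3p, which alone took 22.0% of that column. Over all libraries the next miRNA below it was miR-320-3p, with a mean of 26734 against 45976. In the IPC libraries miR-320-3p ran from 6329 to 15995, below every IPC value of miR-148a-3p. In controls it was at 51705, 11398 and 65153 in replicates 1, 2 and 3, where the values of both miRNAs overlap, so there the order does not hold beyond the spread.

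The other 3p arms were far lower. Normalised values of miR-148b-3p were 521, 197 and 135 in control replicates 1, 2 and 3, and 303, 504 and 362 in IPC replicates 1, 2 and 3. Control replicate 1 was the highest of all libraries and the other controls lay below every IPC library, which is also where miR-148a-3p had them. For miR-152-3p the values were 65.4, 669 and 44.2 in control replicates 1, 2 and 3, and 465, 220 and 256 in IPC replicates 1, 2 and 3. Here control replicate 2 was the highest library and the other controls were below all IPC libraries. The highest control value of miR-152-3p was 15.1 times the lowest, against 3.85 times for miR-148b-3p and 3.58 times for miR-148a-3p.

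**Figure D2:**
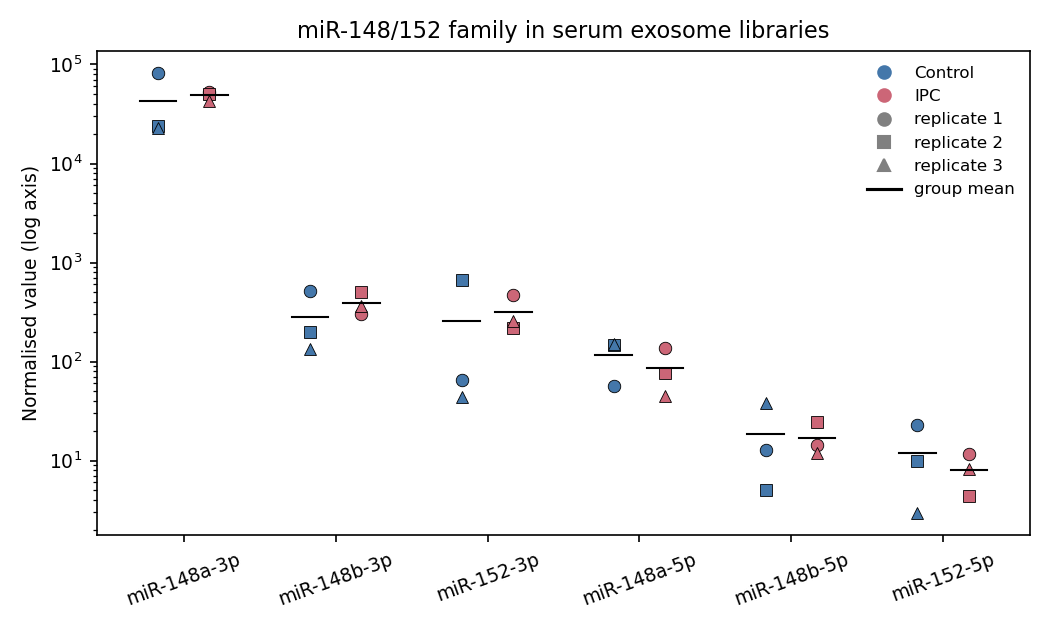
Normalised values (vertical log axis) of the 6 family members in control (blue) and IPC (red) libraries, with symbols for the replicate number and a black bar at the group mean. miR-148a-3p lies between 23044 and 82473 and the other 3p arms between 44.2 and 669. Control replicate 2 is the highest library for miR-152-3p.

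The mature arms printed are 21 to 23 bases long, so their levels were compared without scaling for length. Within a library, the normalised value of miR-148a-3p was 99.6 to 175 times that of miR-148b-3p, a range of less than 2-fold over the 6 libraries. Against miR-152-3p it was 35.8 times as high in control replicate 2 and 1260 times in control replicate 1, with 114 to 228 times in the IPC libraries. miR-148a-3p made up 98.6% of the summed 3p arms in each IPC library, and 99.3%, 96.5% and 99.2% in control replicates 1, 2 and 3. The signal of this seed was thus almost wholly that of miR-148a-3p in every library.

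By mean value miR-148b-3p stood between miR-150-3p at 356 and miR-191a-3p at 311, and its own mean was 337 with a range of 135 to 521. miR-152-3p stood at 287, between miR-760-3p at 298 and miR-425-5p at 286. The ranges of these neighbours overlap those of the family members, so the order among them does not hold beyond the spread between libraries.

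Each 5p arm was lower than the 3p arm of its own hairpin in every library. miR-148a-5p, the most abundant of the 5p arms, had normalised values of 56.0, 146 and 150 in control replicates 1, 2 and 3. The IPC replicates, in the same order, were at 138, 76.2 and 45.1. Only in control replicate 3 did miR-148a-5p exceed 3p arms of the other hairpins, miR-148b-3p at 135 and miR-152-3p at 44.2. Control replicate 1, the highest library for the 3p arm of this hairpin, was the lowest control for the 5p arm. miR-148b-5p ran from 5.08 to 37.7 and rested on a total of 25 control and 113 IPC counts. miR-152-5p ran from 2.92 to 23.0, on totals of 17 and 53 counts.

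Arm use differed between the hairpins and between libraries. In the recovered counts of control replicates 1, 2 and 3, the 3p arm of miR-148a had 1499, 164 and 153 counts for each count of the 5p arm. The ratios in IPC replicates 1, 2 and 3 were 386, 658 and 955. As a share of both arms, miR-148a-5p was 0.0667% of counts in control replicate 1 (exact 95% interval 0.0395% to 0.105%), 0.607% in control replicate 2 (0.502% to 0.726%) and 0.650% in control replicate 3 (0.503% to 0.826%). The IPC shares were 0.259%, 0.152% and 0.105%, and lay between control replicate 1 and the other controls. The interval of control replicate 1 lies below those of the other controls, so this difference between libraries is larger than counting error.

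For miR-148b the 5p arm took 2.29% and 2.45% of both arms' counts in control replicates 1 and 2, and 22.4% in control replicate 3 (exact 95% interval 13.6% to 33.4%), on 17 of 76 counts. The IPC shares were 4.57%, 4.60% and 3.17%. Control replicate 3 thus stood above all other libraries, and its interval does not reach theirs. For miR-152 the share was 27.6% in control replicate 1, on 8 of 29 counts (12.7% to 47.2%), 1.46% in control replicate 2 and 5.00% in control replicate 3, on 1 of 20 counts (0.127% to 24.9%). It was 2.43%, 2.05% and 3.09% in the IPC libraries.

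**Figure D3:**
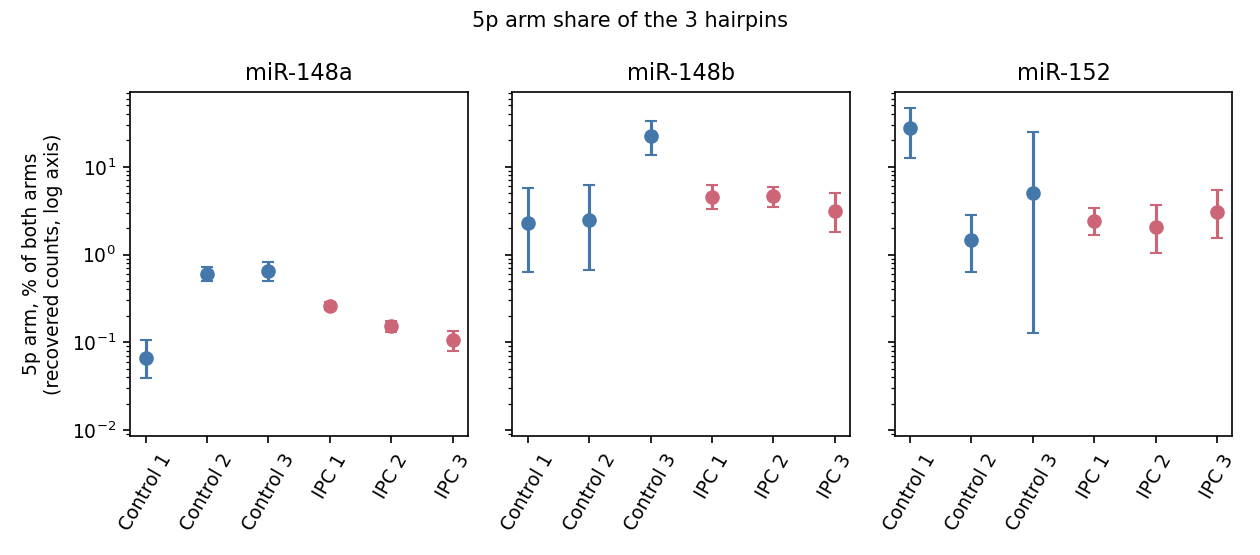
Share of the 5p arm in the recovered counts of both arms (vertical log axis, %) for the miR-148a, miR-148b and miR-152 hairpins, by library (blue control, red IPC). Bars are exact 95% binomial intervals, which cover counting error only. The single high points are control replicate 3 for miR-148b, at 22.4%, and control replicate 1 for miR-152, at 27.6%.

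Over the groups, from the deposited values, the 5p share of miR-148a was 0.172% ± 0.0794 for IPC and 0.441% ± 0.324 for controls (SD, n = 3 each; two-sided exact permutation p = 0.4, adjusted p = 0.6 over the 3 hairpins). For miR-148b it was 4.11% ± 0.832 and 8.90% ± 11.1 (exact permutation p = 1, adjusted 1). Without control replicate 3 the difference between groups turned from -4.79 to 1.64 percentage points. For miR-152 it was 2.50% ± 0.568 and 11.2% ± 13.0 (exact permutation p = 0.4, adjusted 0.6), a difference of -8.71 points that was -1.33 without control replicate 1. Such a test of 3 against 3 libraries cannot give a two-sided p below 0.1, and these differences did not exceed the spread between replicates.

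The comparison of IPC with controls asks whether exosomal miRNA content differs after preconditioning. No family member passed the adjusted threshold, and neither did any of the 226 tested miRNAs (limma, 0%). At an unadjusted p below 0.05 there were 24 of 226 (10.6%) and no family member. limma-voom on the recovered counts also gave 0 past the adjusted threshold, and 23 (10.2%) at an unadjusted p below 0.05, again with no family member. Likewise, no member had groups that did not overlap, against 31 of the 226 tested (13.7%). All 6 members passed the filter on low values, miR-152-5p in 3 libraries and miR-148b-5p in 5.

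The normalised value of miR-148a-3p averaged 48803 ± 5089 for IPC and 43148 ± 34059 for controls (SD, n = 3 each). Its log2 fold change was 0.45 (SE 0.62, 95% interval -0.92 to 1.81; limma, adjusted p = 0.780), so the data allow anything from 0.530 to 3.50 times the control level. Values are relative to the rest of each library, and each library was made from 1 µg of RNA. They thus give neither the number of vesicles nor the amount per vesicle, and a change in other miRNAs would also move them. Left-out libraries moved the log2 fold change from 0.13 without control replicate 3 and 0.16 without control replicate 2 to 1.05 without control replicate 1. Summed over its 6 members, the family took 18.6% ± 0.307 of the column sums for IPC and 15.2% ± 8.47 for controls (n = 3 each; two-sided exact permutation p = 0.7). That difference of 3.43 points became 8.07 when control replicate 1 was left out and -0.228 when control replicate 3 was.

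miR-148b-3p averaged 390 ± 103 for IPC and 284 ± 207 for controls (normalised values), a log2 fold change of 0.66 (SE 0.72, 95% interval -0.91 to 2.24; limma, adjusted p = 0.714). Leaving out control replicate 1 gave 1.22, and leaving out control replicate 3 gave 0.25. Its share of the summed 3p arms was 0.794% ± 0.215 for IPC and 0.668% ± 0.111 for controls (n = 3 each; two-sided exact permutation p = 0.5, adjusted p = 1 over the 2 paralogs), so a change relative to miR-148a-3p was not detectable. The difference of 0.126 points was 0.241 when IPC replicate 1 was left out and 0.0274 when IPC replicate 2 was.

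miR-152-3p averaged 314 ± 132 for IPC and 260 ± 355 for controls (normalised values). Its log2 fold change was 1.24 (SE 0.97, 95% interval -0.89 to 3.37; limma, adjusted p = 0.610), while the group means differed by far less, with most of the control sum in control replicate 2. Leaving that library out, the log2 fold change was 2.44 (SE 0.67, 95% interval 1.05 to 3.83) and passed the adjusted threshold (limma, adjusted p = 0.0231). In that fit 29 of the 226 miRNAs were higher (12.8%) and 9 lower (3.98%), and miR-152-3p was the only family member among them. Without control replicates 1 or 3 it was 0.78 and 0.50. As a share of the 3p arms miR-152-3p took 0.627% ± 0.219 for IPC and 0.989% ± 1.48 for controls (n = 3 each; two-sided exact permutation p = 1, adjusted 1). That difference of -0.362 points turned to 0.492 without control replicate 2.

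**Figure D4:**
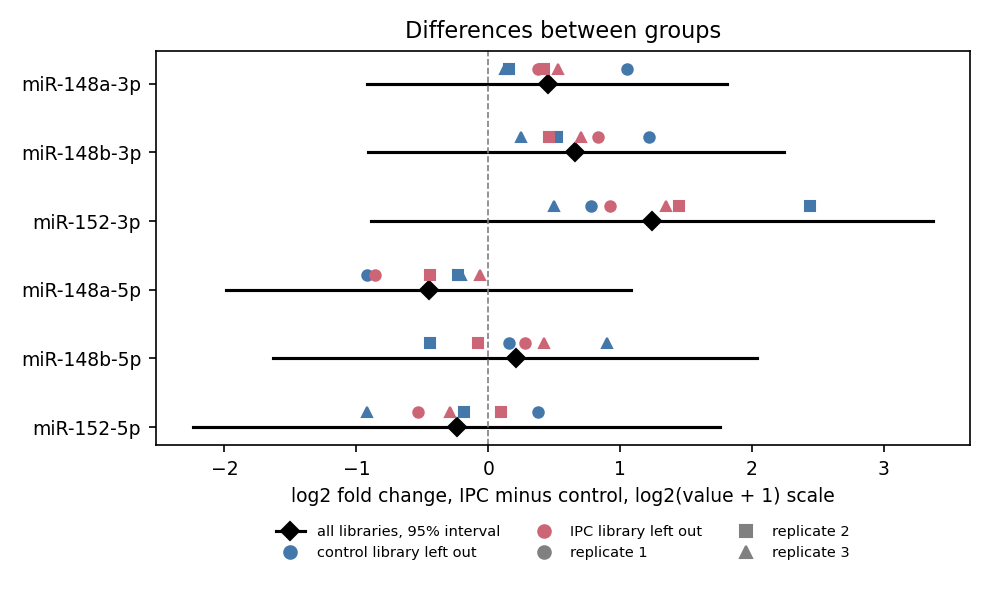
Log2 fold change of each family member, IPC minus control, on the log2(value + 1) scale (horizontal axis). Black diamonds with 95% intervals are the limma fit of all 6 libraries, and coloured symbols above them leave out 1 control (blue) or 1 IPC (red) library. All intervals of the full fit include 0, and the farthest point is miR-152-3p without control replicate 2, at 2.44.

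The 5p arms had log2 fold changes of -0.45 for miR-148a-5p (SE 0.70), 0.21 for miR-148b-5p (SE 0.83) and -0.24 for miR-152-5p (SE 0.91), with adjusted p = 0.783, 0.956 and 0.956 (limma). Without control replicate 1 the first was -0.92, and without IPC replicate 3 it was -0.065. The second turned to -0.44 without control replicate 2 and to -0.0067 under median-of-ratios scaling, and was 0.90 without control replicate 3. The third was 0.38 with control replicate 1 left out and -0.92 with control replicate 3 left out. The median over the 6 members was 0.33, beside 0.38 over all tested miRNAs, and 4 of 6 values were positive, beside 142 of 226 (62.8%). Median-of-ratios scaling moved the median of all tested by -0.19, and then 3 of the 6 were positive, beside 122 of 226.

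The authors' deposited table gives log2 fold changes of 0.18 for miR-148a-3p, 0.46 for miR-148b-3p and 0.27 for miR-152-3p, with p-values of 0.814, 0.554 and 0.778. In the authors' deposited table the 5p arms of miR-148a, miR-148b and miR-152 have -0.45, -0.11 and -0.53, with p-values of 0.571, 0.927 and 0.604. The sign for miR-148b-5p is thus opposite to that of limma on the log scale, where it was 0.21. For miR-152-3p the sign is the same, but the authors' 0.27 is well below the 1.24 of limma.

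Across the 6 libraries, the profile most like that of miR-148a-3p among the other 225 tested miRNAs was that of miR-148b-3p. Likeness was measured as the root mean square difference of log2 values after subtracting each miRNA's mean, and was 0.30 for this pair, where the median over all others was 1.05. miR-152-3p was at 1.61, with 192 miRNAs closer. Outside the family the closest were miR-1843b-5p (0.33), miR-1843a-5p (0.34), miR-24-2-5p (0.40) and miR-130b-3p (0.44). These libraries share depth and scaling between all miRNAs, so the distances are a description. How mismatched reads were divided between miR-148a-3p and miR-148b-3p is not given, and its part in their likeness was not tested.

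**Figure D5:**
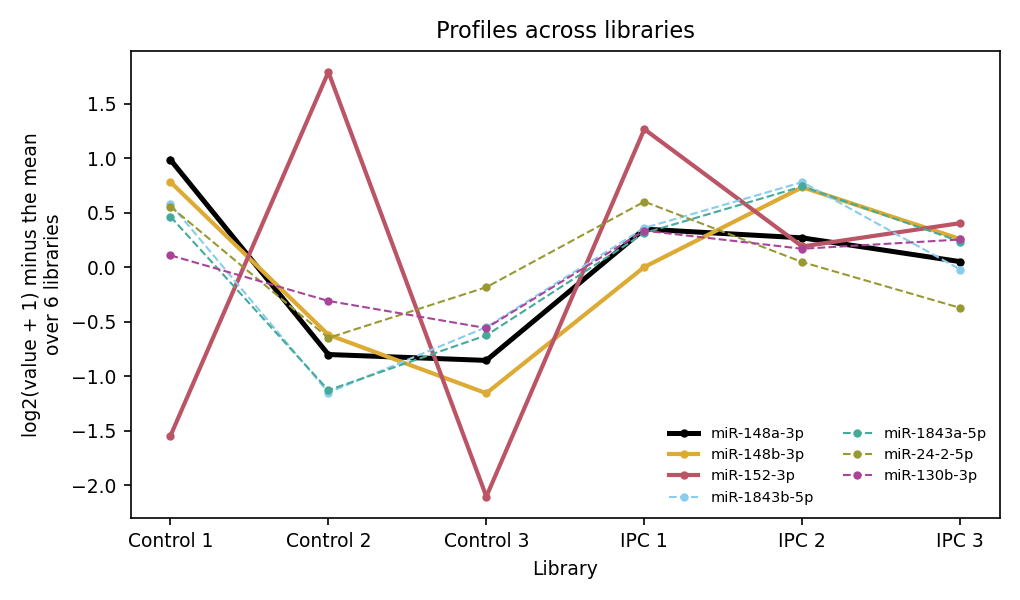
Log2(value + 1) minus each miRNA's mean over the 6 libraries (vertical axis), for the family's 3p arms (solid lines) and the miRNAs closest to miR-148a-3p (dashed). Lines only join the points of 1 miRNA. miR-148a-3p and miR-148b-3p are highest in control replicate 1 or near it and lowest in control replicates 2 and 3, while miR-152-3p is highest in control replicate 2.

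The last of these, miR-130b-3p, has a seed shifted by 1 base from that of the family, as do miR-130a-3p and miR-301b-3p. It is shown because the shifted seed AGUGCAA holds 6 of the family's 7 seed bases:
miR-130b-3p: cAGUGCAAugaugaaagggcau
It was low in these libraries, with normalised values of 11.9, 8.69 and 7.16 in control replicates 1, 2 and 3, and 14.1, 12.5 and 13.3 in IPC replicates 1, 2 and 3. The control values rest on 4, 7 and 3 recovered counts, at or near the floor of 3 counts, so its likeness to miR-148a-3p rests on little data. The summed mean of the 3 miRNAs with the shifted seed was 59.4, against 45976 for miR-148a-3p. Their log2 fold changes were 1.20 for miR-130a-3p (SE 0.79) and 0.51 for miR-130b-3p (SE 0.72), and miR-301b-3p lay below the filter.

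miR-152-3p had other miRNAs near its profile, which were looked up after its values were seen. The closest were miR-203a-3p (0.46), miR-450b-5p (0.59), miR-382-5p (0.61) and miR-144-5p (0.63). miR-203a-3p, known from skin epithelium, had normalised values of 68.2, 291 and 32.7 in control replicates 1, 2 and 3, and 253, 171 and 262 in the IPC libraries. As for miR-152-3p, control replicate 2 was the highest library and the other controls were the lowest. This shared order largely follows from choosing miR-203a-3p by the likeness of its profile, and is a description.

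Other miRNAs reported to act on the same kinds of target were described through 2 lists. Of 9 miRNAs reported to target DNA methyltransferase mRNAs, 3 of them family members, all 9 were tested and 0 passed in either direction (limma). Their median log2 fold change was 0.86, beside 0.38 over all tested. All 9 values were positive, but miR-185-5p and miR-126a-3p turned negative under median-of-ratios scaling. miR-29a-3p, of the collagen-targeting miR-29 family, averaged 2595 ± 1203 for IPC and 1114 ± 521 for controls, with a log2 fold change of 1.23 (SE 0.68; limma, adjusted p = 0.531). miR-185-5p averaged 1052 ± 573 and 1006 ± 535, with 0.044 (SE 0.67).

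Of 10 miRNAs reported to target the LDL receptor or ABCA1, miR-148a-3p among them, 8 were tested, 0 passed in either direction and the median was 0.48. miR-128-3p, the most abundant after miR-148a-3p, averaged 10059 ± 7033 for IPC and 10708 ± 6505 for controls, with a log2 fold change of -0.015 (SE 0.75), which turned positive in limma-voom. miR-27a-3p averaged 5321 ± 2413 and 3662 ± 1416, with 0.54 (SE 0.62). At an unadjusted p below 0.05 there was 1 of the 8, beside 10.6% of all tested. It was miR-223-3p, a myeloid and platelet miRNA named for that count after its values were seen, at 1.78 (SE 0.72; limma, adjusted p = 0.350). miR-148a-3p held most of the summed share of both lists in every library, which was 8.37% to 25.6% of the columns for the methyltransferase list and 13.9% to 30.1% for this one.

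Markers of the cells that could feed serum vesicles were measured in the same libraries. Of 6 red-cell miRNAs, all were tested and 0 passed, and their summed share was 4.10%, 5.10% and 7.78% in control replicates 1, 2 and 3 (4.93% to 5.82% with IPC). Control replicate 1, with the highest share of miR-148a-3p, thus had the lowest summed red-cell share, and control replicate 3 had the reverse. The miR-144 arms on that list did not follow this order and were highest in control replicate 2. In control replicates 1, 2 and 3, miR-144-3p had normalised values of 28.7, 189 and 23.6. miR-144-5p had 0, 23 and 1 recovered counts in the same libraries. Of 4 platelet miRNAs, all tested and 0 passing, the summed share was 11.0%, 10.5% and 4.30% in control replicates 1, 2 and 3 (9.46% to 12.5% with IPC). Of 3 liver miRNAs, all tested and 0 passing, it was 1.04%, 2.29% and 1.43% in controls and 0.703% to 1.47% in the IPC libraries. Of 5 leukocyte miRNAs, 4 were tested and 0 passed, with 0.957%, 2.01% and 0.686% in controls and 1.61% to 2.57% after IPC.

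Of 6 muscle miRNAs, all tested and 0 passing the adjusted threshold, the summed share was 0.287%, 1.83% and 0.217% in control replicates 1, 2 and 3 (1.42% to 8.44% with IPC). Their log2 fold changes were all positive, with a median of 2.83 beside 0.38 over all tested, and 6 of 6 had an unadjusted p below 0.05 (limma), beside 10.6% of all tested. The liver, leukocyte and muscle shares were, like miR-152-3p, higher in control replicate 2 than in the other controls. No marker on these lists was at 0 in all libraries. The part of these cells in the values of the family was not tested.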

How the data were processed

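Per the labels' protocols, 1 µg of Trizol RNA per sample went into NEBNext small RNA libraries, sequenced as single 50 bp reads on an Illumina HiSeq. FastQC, BWA, edgeR and build rn6 appear in the submitters' processing notes without versions or roles, and the aligner's mismatch setting is not given in the sources used here. The deposited table holds 1 normalised signal per miRNA and library, with, per the file headers, the authors' log2 fold change and p-value.

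This deposited signal has the form of counts adjusted by quantiles to 1 library size (265919) at a dispersion of 0.503, worked out from the values. Inverting it within each group gave 4578 of 4578 values within 0.01 of a whole count. Of the 763 miRNAs, 480 had a recovered count, and the rest were at 0 in all libraries, which is whole without any inversion. Replicates were distinct libraries (chi-square per degree of freedom from 150 to 445 within groups). The count model of the design was replaced by its version for normalised signal, limma 3.58.1 (R 4.3.3, trended, robust) on log2(value + 1), a scale that understates changes of low miRNAs, over 226 miRNAs with at least 34.9 CPM (10 counts at the median effective size) in 3 libraries and 15 counts in all, with Benjamini-Hochberg adjustment. Shares were compared by exact permutation over the 20 assignments.

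Alternatives were other pseudocounts, no filter, other scalings, limma-voom, a replicate block and leaving out each library. The pipeline was tested on simulated data. Members and lists were chosen with earlier results of these data known. Named miRNAs were the members, the 4 closest profiles, neighbours in level and the 2 most abundant others per target list. Python 3.11.15 ran scipy 1.17.1, pandas 2.3.3, numpy 2.4.6 and, for figures, matplotlib 3.10.9.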

Additional observations from a re-analysis of the deposited data

How the results depend on the processing

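Of 140 recomputed values, 128 kept their direction and side of the threshold. The shares among them were compared by exact permutation, which cannot give a p below 0.1, so only their direction could change. The number of miRNAs past the adjusted threshold (limma) was 0 with all libraries, 3 without the filter and 0 to 38 with a library left out. miR-148a-3p (log2 fold change 0.13 to 1.05 with a library left out) and miR-148b-3p (0.25 to 1.22) kept a positive sign and did not pass the threshold under any alternative run. miR-152-3p ran from 0.50 to 2.44, the last without control replicate 2 and past the threshold. miR-148b-5p ran from -0.44 to 0.90 (-0.080 without IPC replicate 2), with -0.0067 under median-of-ratios scaling, and miR-152-5p from -0.92 to 0.38 (0.10 without IPC replicate 2). With a library left out, the family share differed between groups by -0.228 to 8.07 percentage points, the miR-152-3p share of the 3p arms by -0.818 to 0.492 and the 5p share of miR-148b by -8.03 to 1.64. The cause of these changes was not tested.

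Same-numbered libraries did not visibly deviate together (correlations of deviations 0.13, -0.18 and -0.51), and no library correlated best with its own number. So few correlations cannot exclude that the numbers pair the samples. With a replicate block 2 miRNAs passed, and miR-148a-3p stayed at 0.45 (limma, adjusted p = 0.907). Control depth limits the 5p arms of miR-148b and miR-152, with 1 to 17 counts per control library.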
